A study of Mus musculus with 4 samples.

Results

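The cation-chloride cotransporters (the Slc12 family) were measured in whole testes of Taf7l knockout and wild type mice. The members were 8 genes, Slc12a1, Slc12a2, Slc12a3, Slc12a4, Slc12a5, Slc12a7, Slc12a8 and Slc12a9, of 18193 genes that the platform annotation names on the array. They were found by gene symbol, at every probe set that the annotation gives to that gene alone, which yielded 16 probe sets. The family was chosen by the signal difference between genotypes on these same arrays, because a probe set of Slc12a7 is among the largest rises of the series, so the differences of its members between genotypes are given as a description. Where calls of the fit over all probe sets are counted for members, the counts support nothing.

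Total RNA came from testes of male mice, all 8 weeks old and all labelled C57BL/6J. The wild type group and the Taf7l knockout group held 2 arrays each, and no further treatment or allele is labelled. Taf7l, a gene of the X chromosome active mainly in germ cells, is related to a subunit of TFIID, the complex that binds core promoters. The sources used here do not describe the deleted part of the gene. The title and the description of knockout replicate 2 give it different replicate numbers. What a replicate number marks is not labelled, so the spread between arrays may be technical. In whole testis, a change in the number of cells of a type and a change in RNA per cell cannot be told apart.

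These proteins carry chloride across the cell membrane together with sodium, potassium or both, without moving net charge. Those that use sodium bring chloride into the cell, and those that use only potassium usually take it out, and between them they set cell volume and intracellular chloride. WNK kinases act on both branches through the kinases SPAK (Stk39) and OSR1 (Oxsr1), whose phosphorylation switches the sodium-coupled carriers on and the potassium-chloride carriers off. In the testis the sodium-potassium-chloride carrier NKCC1 (Slc12a2) is known to be needed for sperm production in mice.

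The arrays matched their labels at Taf7l, with 829 and 818 in wild type against 80.6 and 72.5 in the knockout. The 10 spermatid markers, as the labelled tissue would have it, were all above the signal filter (a mean over the 4 arrays of at least 45.8, below which values are mostly background). Wild type replicate 2 stood apart in adipocyte markers, whose summed signal was 875 and 4000 in wild type and 971 and 1681 in the knockout. Knockout replicate 2 stood apart in epididymis markers, which summed to 9127 and 10746 in wild type and 10510 and 16712 in the knockout. Of the somatic lists, the sums of Sertoli, Leydig and leukocyte markers were higher on both knockout arrays than on both wild type arrays. The groups also did not overlap at 55.0% of all kept probe sets, so such a gap is common here. Of 4 adipocyte markers above the filter, 0 were higher in the knockout (median log2 −0.47). The sums of peritubular myoid markers (2191 and 2222 against 2360 and 2177) and of endothelial markers (130 and 119 against 124 and 121) overlapped. Of 4 myoid markers above the filter, 3 were higher in the knockout. Of 5 endothelial markers, 4 (Tek, Tie1, Pecam1 and Cdh5) lay under the filter, so their sum cannot show whether endothelium moved. The summed signal of 9 Sertoli markers, 6 of the 7 above the filter being higher in the knockout, was 50019 to 52385 in wild type and 61405 to 65119 in the knockout, with Fshr and Amh under the filter. That of 6 Leydig markers, 5 of 6 higher, was 16538 to 16742 and 20543 to 21008, and that of 10 macrophage and leukocyte markers, 8 of 8 above the filter higher, was 2631 to 2808 and 3004 to 3351, with Ptprc and Cd68 under it. Spermatid markers, 1 of 10 higher, summed to 469613 to 487202 and 435054 to 450087. The summed signal of all kept probe sets was also lower in the knockout, with 39874800 and 39681300 against 36913800 and 38097800. That sum includes the spermatid markers, so it cannot show whether the lower spermatid sum is particular to them. Spermatocyte markers, 2 of 7 higher, summed to 150793 and 147321 in wild type and 141424 and 141969 in the knockout. Spermatogonium markers, 3 of the 5 above the filter higher, summed to 1553 and 1630 against 1686 and 1596, which overlap. The part of these shifts in any difference below was not tested.

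Of the 16 probe sets, 8 passed the filter, and they covered 5 of the 8 genes (Slc12a2, Slc12a4, Slc12a5, Slc12a7 and Slc12a9). Both probe sets of Slc12a1, of Slc12a3 and of Slc12a8 lay under it. The highest mean among those left out was 45.1, at a second Slc12a7 probe set just under the limit, and the lowest among those kept was 69.2, at Slc12a4. Of the 8 kept, 4 were higher and 4 lower in the knockout, with a median log2 difference of −0.05 beside −0.05 over all 22519 kept probe sets. In a limma fit with Benjamini-Hochberg adjustment over all kept probe sets, 1 of the 8 was among the calls, Slc12a7, where 1.39% of all kept probe sets were called (312) and 0.444% were called higher. The calls were 100 higher and 212 lower. That split was 91 higher and 57 lower after quantile normalization, and 147 higher and 499 lower with arrays centred on their medians. The groups did not overlap at 5 of the 8 kept member probe sets, where they did not overlap at 55.0% of all kept probe sets. Those 5 belong to Slc12a2, Slc12a5 and Slc12a7 only.

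**Figure D1:**
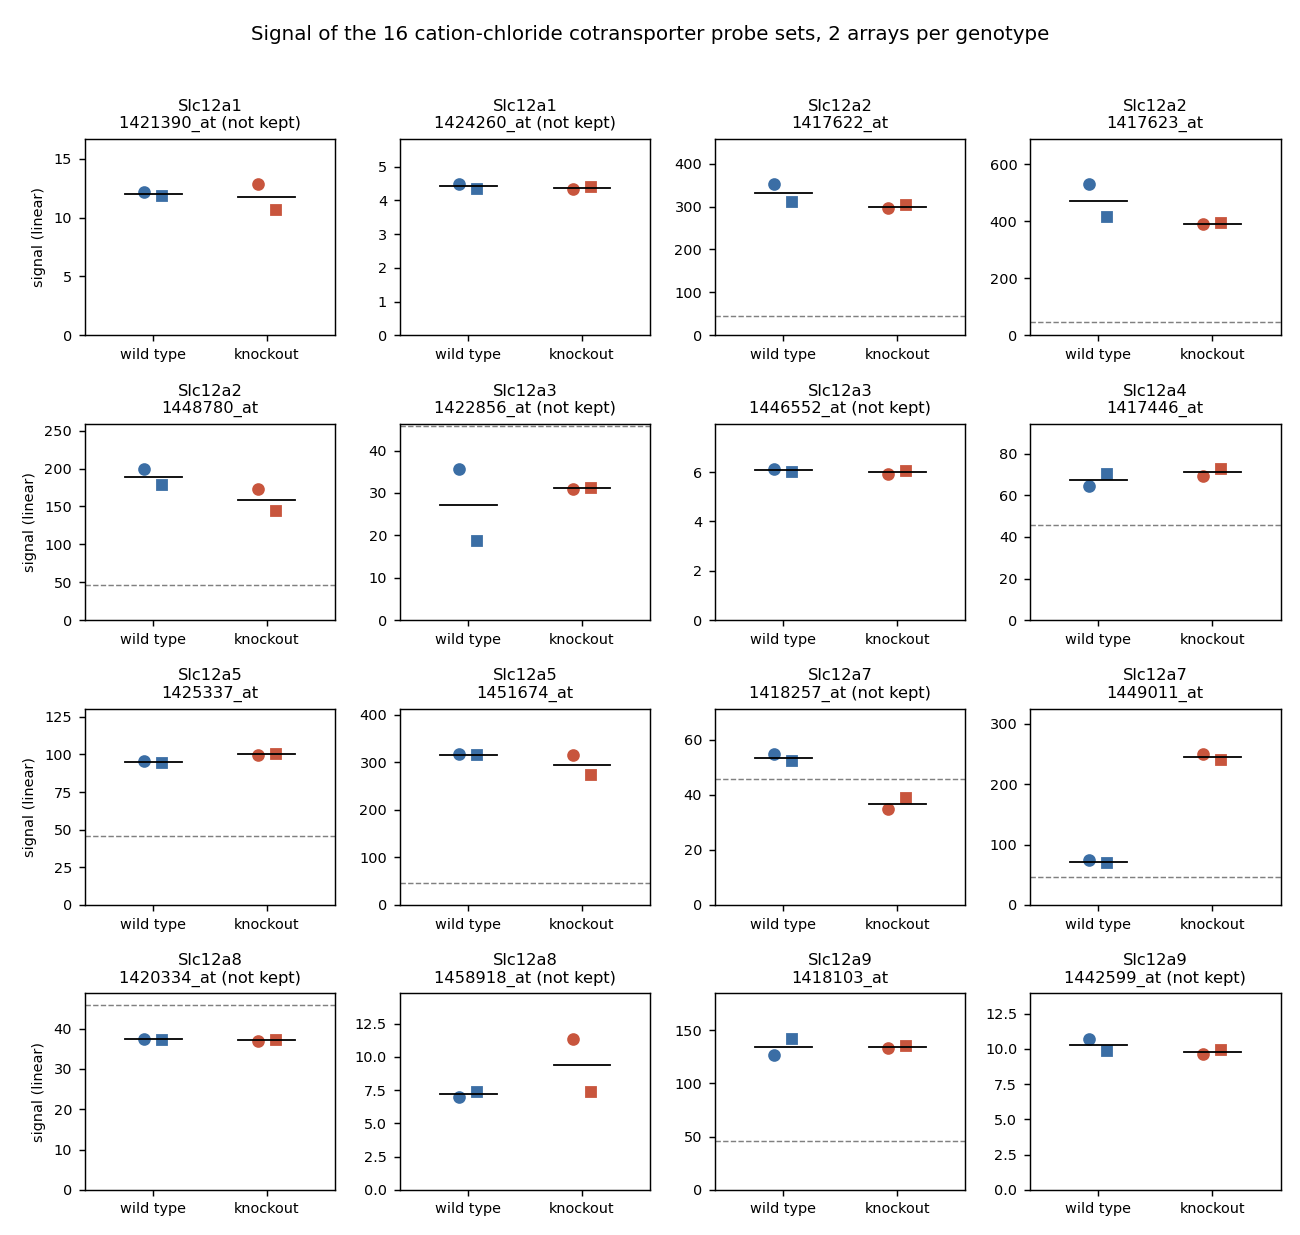
Linear signal of each of the 16 probe sets (vertical axes start at 0 and differ between panels) on wild type (blue) and knockout (red) arrays, circles for replicate 1, squares for replicate 2, short black lines for group means and a dashed line at the filter of 45.8. Slc12a7 at 1449011_at is far higher on both knockout arrays, while its other probe set is lower on both.

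Slc12a7 encodes KCC4, a potassium-chloride carrier known from kidney and inner ear. Its promoter is shown because it is the member with the large difference and Taf7l encodes a core promoter factor, beside that of Slc12a3, the only member gene with a TATA box in the windows searched. The sequences are the 250 bases before an annotated start in RefSeq (GRCm38.p6, plus strand), with matches on either strand to the TATA box (TATAAA), the GC box (GGGCGG) and the E-box (CACGTG) in capitals.
Slc12a7 (chr13:73763447-73763696): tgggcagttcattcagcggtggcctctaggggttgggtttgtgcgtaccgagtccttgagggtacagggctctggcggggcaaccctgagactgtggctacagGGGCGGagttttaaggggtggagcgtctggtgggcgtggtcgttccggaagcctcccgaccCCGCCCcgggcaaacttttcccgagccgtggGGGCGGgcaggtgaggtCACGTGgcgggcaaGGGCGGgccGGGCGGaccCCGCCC
Slc12a3 (chr8:94328958-94329207): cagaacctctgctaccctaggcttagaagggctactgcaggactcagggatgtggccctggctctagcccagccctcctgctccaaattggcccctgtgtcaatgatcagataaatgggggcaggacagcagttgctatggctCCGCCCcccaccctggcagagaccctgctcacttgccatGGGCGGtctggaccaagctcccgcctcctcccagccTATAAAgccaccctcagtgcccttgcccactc

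RefSeq windows of 300 bases, from 250 before to 50 after a start, were found for 7 of the 8 members, 11 windows in all. The GC box GGGCGG, searched on both strands, lay in 9 of the 11 windows and in at least 1 window of each of the 7 genes, where 35.7% of all 32851 windows held it. Both Slc12a7 windows, whose starts are 37 bases apart and which overlap, held the same 6 sites. The stretch printed above belongs to the later start. Before the earlier start, only the GC boxes at −110, −49 and −18 lie, and the E-box, at −1, runs across that start. The E-box counted for both windows below is also the same site. The TATA box TATAAA lay in 1 window, that of Slc12a3 at position −32 from the start, where 13.6% of all windows held it. The E-box CACGTG lay in 4 windows, both of Slc12a7 among them (7.15% of all windows), CCAAT in 5 (37.4%) and the cyclic AMP response element TGACGTCA in 0 (1.79%). The Slc12a7 windows were 66.7% and 69.3% G or C, against a median of 52.7% over all windows. These traits are not particular to Slc12a7. The window of Slc12a4, whose log2 difference was 0.08, also held 6 GC boxes and no TATA box, and was 65% G or C. A match describes the letters of the window only.

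At the probe set 1449011_at, Slc12a7 stood at 73.9 and 69.6 in wild type and at 250 and 240 in the knockout (linear signal, as all paired values here). Both knockout arrays were far above both wild type arrays, and each pair of replicates lay close together. The mean went from 71.8 ± 3.08 to 245 ± 6.97 (SD, n = 2 each), a 3.41-fold rise (log2 1.77, limma SE 0.096), and single knockout arrays were 3.25-fold to 3.59-fold above single wild type arrays. Of all kept probe sets, 11, itself included, were higher by as much or more. The log2 difference stayed between 1.70 and 1.82 over the settings that kept it, and was 1.73 without wild type replicate 2 and 1.80 without knockout replicate 2. Its place among the calls was lost with no filter on signal and with any 1 array left out, settings under which limma called 0 probe sets in all.

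The second Slc12a7 probe set, 1418257_at, ran the other way. It stood at 54.9 and 52.3 in wild type and at 34.7 and 38.7 in the knockout, so the groups again did not overlap. The mean was 53.6 ± 1.85 and 36.7 ± 2.81, 1.46-fold lower in the knockout (log2 −0.55), and −0.62 to −0.47 over the settings. The platform annotation lists the same source sequence for both probe sets. This probe set fell just under the filter and its knockout mean lies in the range of background, which leaves the size of this difference uncertain. The sources used here do not say which transcripts or positions each probe set covers, and the signal of the Slc12a7 gene as a whole therefore has no single direction in these data.

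Such opposed probe sets were counted over the array, with a size chosen after the Slc12a7 values were seen. Of 9010 genes with several probe sets, 5 had a probe set at least 0.5 higher and another at least 0.5 lower on the log2 scale, each without overlap of the groups. Of the 40 genes with several probe sets and a kept one at least 2-fold higher without overlap, 1 had an opposed probe set, and that was Slc12a7. The opposed probe set did not have to pass the filter. Both differences of Slc12a7 exceed the chosen size, so its place in these counts was fixed beforehand. The counts therefore describe the array and support nothing about Slc12a7.

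**Figure D2:**
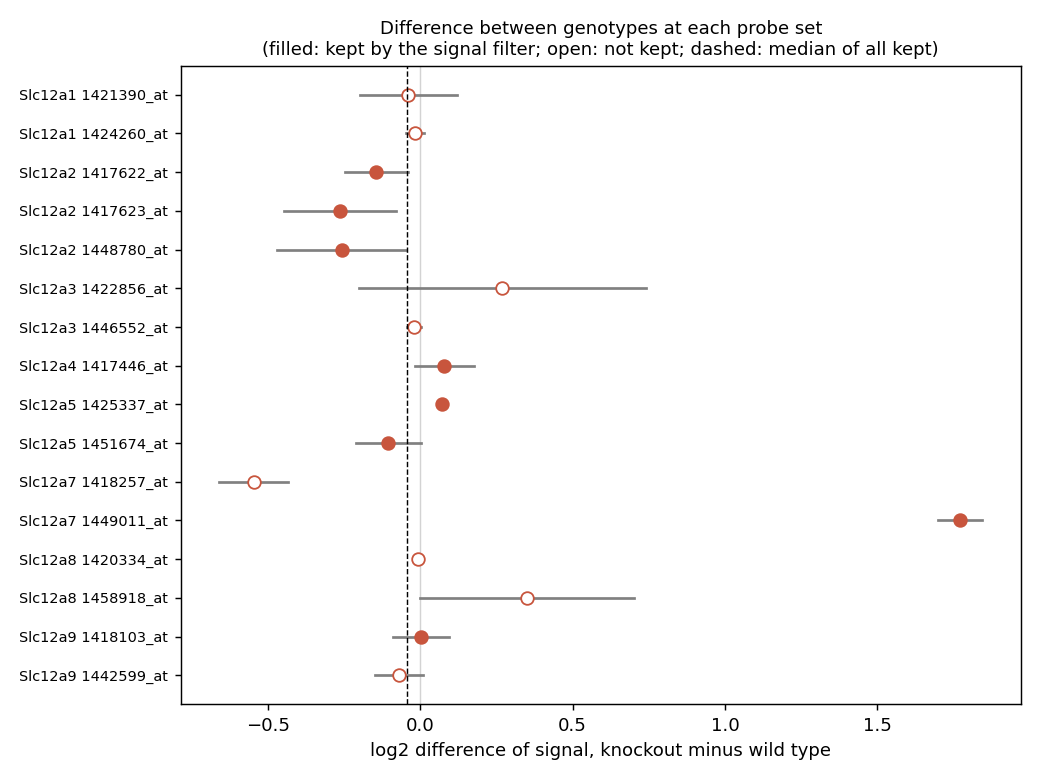
Log2 difference of signal, knockout minus wild type, at each probe set (points, filled where the filter kept the probe set), with grey lines from the lowest to the highest of the differences between single knockout and single wild type arrays and a dashed line at the median of all kept probe sets (−0.05). Slc12a7 holds both the highest value (1.77) and the lowest (−0.55), and no other kept member lies outside −0.26 to 0.08.

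The probe sets whose 4 values ran most like those of Slc12a7 at 1449011_at, by Euclidean distance between log2 values each centred on its own mean over the 4 arrays, belonged to Fitm1, Nmnat3, Slc16a12, Ext1 and Bpifb3. Fitm1, a gene of lipid droplet formation, was nearest (distance 0.157), with signals of 107 and 95.8 in wild type and 313 and 314 in the knockout. Nmnat3, an enzyme of NAD synthesis, followed (0.189), with 297 and 322 against 1189 and 1041. Slc16a12, of the monocarboxylate transporter family, lay at 0.241, Ext1, a heparan sulfate polymerase, at 0.280 and Bpifb3 at 0.281. A distance over 4 arrays describes these arrays only, and the rises of these genes are part of the same contrast.

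**Figure D3:**
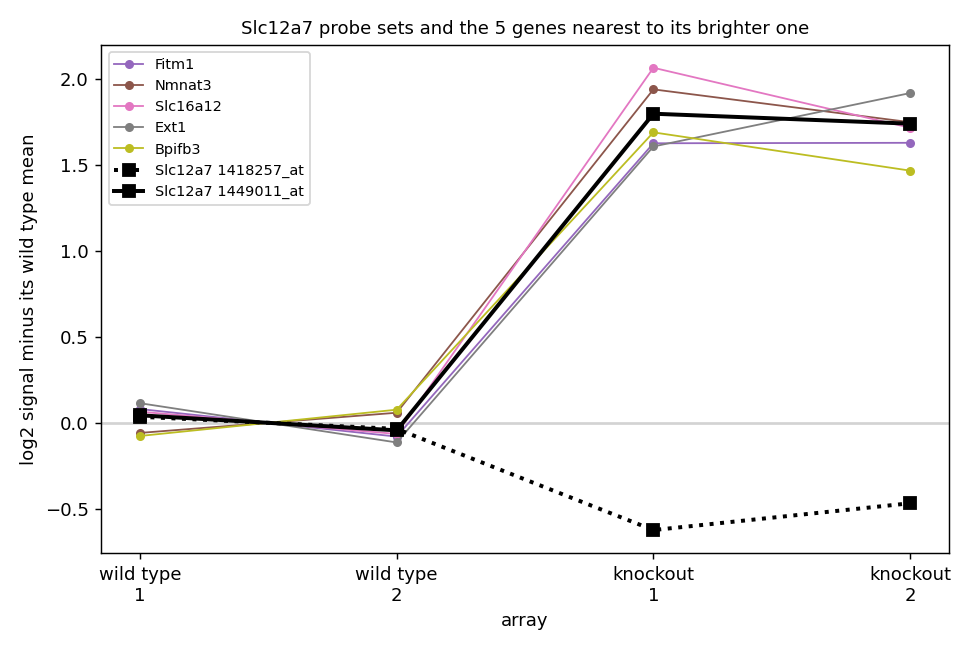
Log2 signal minus its wild type mean on each array for both Slc12a7 probe sets (black squares, solid for 1449011_at and dotted for 1418257_at) and for the nearest probe sets of 5 other genes (coloured circles), with lines that only join the values of a probe set. The 5 genes and 1449011_at sit together on the knockout arrays, and 1418257_at lies below 0 there.

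The other potassium-chloride carriers showed small differences. Slc12a4, the widely expressed KCC1, had 64.3 and 70.4 in wild type and 69.5 and 72.7 in the knockout, and the groups overlapped (log2 0.08, limma SE 0.10). Slc12a5, the KCC2 of neurons, had 95.9 and 94.5 against 99.8 and 100.3 at 1425337_at (log2 0.07, SE 0.091) and 317 and 314 against 315 and 274 at 1451674_at (log2 −0.10, SE 0.10). Its probe sets thus pointed opposite ways by amounts near their errors, and only the first had groups that did not overlap. Of 5 neuronal markers, 4 lay under the filter (Snap25, Gad1, Syt1 and Nefl).

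Slc12a2, which encodes NKCC1, was lower on both knockout arrays than on both wild type arrays at each of its 3 probe sets, which share a listed source sequence and are not independent. At 1417623_at the signal was 531 and 416 in wild type and 389 and 393 in the knockout (473 ± 81.4 and 391 ± 2.47, log2 −0.26, limma SE 0.13). At 1448780_at it was 199 and 178 against 173 and 144 (log2 −0.26, SE 0.13). At 1417622_at it was 352 and 311 against 297 and 302 (log2 −0.14, SE 0.099). Of all kept probe sets, 36.3% were lower in the knockout without overlap. Wild type replicate 1 was the highest array at all 3, and without it the differences were −0.09, −0.18 and −0.06, in the same order, against −0.44, −0.34 and −0.23 without wild type replicate 2. At 1448780_at the knockout arrays mattered too, with −0.39 when the first was left out and −0.13 when the second was.

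The other sodium-coupled carriers are those of the kidney tubule, where diuretics act, and both lay under the filter. Slc12a1 (NKCC2) had 12.2 and 11.8 in wild type and 12.8 and 10.6 in the knockout at 1421390_at, and its other probe set stayed between 4.34 and 4.48 on all arrays. Slc12a3 (NCC) had 35.6 and 18.6 against 31.0 and 31.1 at 1422856_at, where the wild type arrays differed more from each other than the genotypes did, and its log2 difference of 0.27 became −0.20 without wild type replicate 2. Its other probe set stayed between 5.94 and 6.12. Of 5 kidney markers, 3 (Umod, Slc22a6 and Nphs1) were also under the filter and 2 above it.

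The more distant members also gave overlapping groups, at every probe set. Slc12a9, first described as a protein that interacts with NKCC1, had 127 and 142 in wild type and 133 and 135 in the knockout at 1418103_at, with overlapping groups (log2 0.00, SE 0.10, and of the other sign after quantile normalization or median centring), and 9.67 to 10.7 at 1442599_at, under the filter. Slc12a8, whose cargo is debated, had 37.5 and 37.1 against 37.0 and 37.2 at 1420334_at. At 1458918_at it had 6.98 and 7.38 against 11.4 and 7.38, and the replicate 2 arrays of both genotypes are identical to the last digit there, as at 2385 probe sets of the array, where other pairs of arrays share 228 to 620 values. The sources used here do not say how those shared values arose.

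Genes that control the carriers or share their ions were listed for comparison and tested in the same fit, each at its brightest kept probe set. Of 59 such genes, limma called 0, where it called 1.39% of all kept probe sets, while 11 (18.6%) had an unadjusted p under 0.05, against 24.7% of all kept probe sets. They comprised 18 regulators of the WNK and SPAK pathway (12 higher and 6 lower, median log2 0.07), 13 genes of the sodium pump and potassium paths (5 and 8, −0.03), 22 chloride channels and exchangers (10 and 12, −0.08) and 6 aquaporins (2 and 4, −0.19). The median over all kept probe sets was −0.05.

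Among the regulators, Stk39, the SPAK kinase that phosphorylates NKCC1 and the potassium-chloride carriers, had the smallest p. Its signal was 11271 and 11511 in wild type and 8815 and 9355 in the knockout, 1.25-fold lower without overlap (log2 −0.33, SE 0.055, limma adjusted p = 0.056), and 4473 and 4855 against 3678 and 4091 at its other probe set (limma adjusted p = 0.13). It did not pass. Both probe sets lay lower on each knockout array, as did 36.3% of all kept probe sets. They measure 1 gene in the same RNA and are not independent. Tsc22d1, of a family that binds WNK pathway proteins, had a log2 difference of 0.26 at its brightest probe set and of −0.27 to 0.14 at its other 5. The pseudokinase gene Nrbp1 stood at 0.38 and Tsc22d3 at 0.37, and neither passed (limma adjusted p = 0.103 and 0.149). The other kept probe sets of Tsc22d3 stood at 0.23 and −0.20, so they did not share a direction.

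Among the potassium paths, Kcnu1, the pore of the sperm potassium channel SLO3, had 2133 and 2060 in wild type and 1431 and 1577 in the knockout (log2 −0.48, SE 0.077, limma adjusted p = 0.054). The groups did not overlap, as at 55.0% of all kept probe sets, and the adjusted value did not pass the threshold of 0.05. Fxyd2, the gamma subunit of the sodium pump, was higher at each of its 3 probe sets, by 0.23 at the brightest and by 0.65 and 0.69 at the others, with a smallest limma adjusted p = 0.052. Atp1b1, a pump beta subunit, differed by −0.58 at its brightest probe set and by −0.11, 0.12 and −0.08 at the others, and Kcnk5, an acid-sensitive potassium channel gene, by −0.34, none of them passing.

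Chloride channels, exchangers and aquaporins gave no call either in this fit. Ttyh3, of the tweety family, differed by −0.35, the intracellular chloride channel gene Clic4 by 0.22, and the anion exchanger genes Slc26a6 and Slc4a2 by 0.49 and −0.39, with limma adjusted p of 0.122, 0.136, 0.206 and 0.229. Aqp11, an aquaporin of intracellular membranes, had 11272 and 11075 in wild type and 8157 and 9690 in the knockout (log2 −0.33, limma adjusted p = 0.11). The water and glycerol channel genes Aqp7 and Aqp9 stood at −0.17 and −0.21, and Aqp8 at 0.37. A dimmer Aqp9 probe set, with 680 and 691 against 491 and 502, had a limma adjusted p = 0.0535.

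**Figure D4:**
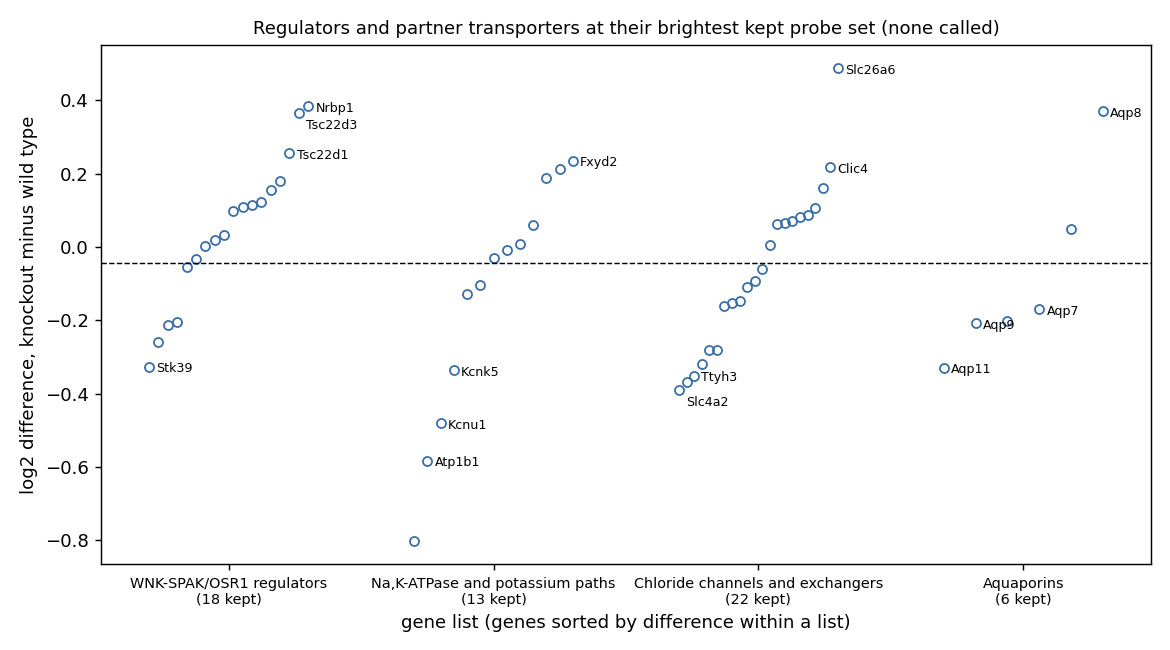
Log2 difference, knockout minus wild type, of each of the 59 listed genes at its brightest kept probe set, sorted within its list, with the names of the 4 genes of smallest p per list and a dashed line at the median of all kept probe sets (−0.05). Points lie on both sides of that line in every list, and the lowest is the potassium channel gene Kcnk2 at −0.80 (limma adjusted p = 0.223).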

How the data were processed

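Testis RNA from 2 wild type and 2 Taf7l knockout samples was measured on Affymetrix arrays. The deposited values are a linear intensity per probe set, made with MAS5 per the submitters' processing notes, with no version, scaling target or genome build given in the sources used here. Under the signal filter, the median absolute log2 difference between replicates was 0.049 in wild type and 0.030 in the knockout. Among kept probe sets it was larger, 0.094 and 0.112. Why replicates lay closer at low signal is not said in those sources. Gene names came from the platform annotation and were brought up to date with RefSeq (GRCm38.p6). Of 45037 mouse probe sets, 34945 had 1 symbol, 932 several and 9160 none, and no probe set of several genes held a member.

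The log2 of each signal was used, with an offset of 0. The brighter probe sets, those whose mean over the 4 arrays reached the median such mean, were kept (22519) and fitted with limma 3.58.1 in R 4.3.3 (lmFit, eBayes with a trend), genotype as the only term, two-sided, called at a Benjamini-Hochberg adjusted p under 0.05. The fit had 2 residual and 3.17 prior degrees of freedom, and the number of arrays limits the precision. With 2 arrays against 2, the smallest p of an exact permutation test is 0.333. The procedure was tested on simulated data, where it recovered 46.4% of planted log2 changes of 0.5 and 96% of those of 1. Many changes of 0.5 or less would thus be missed. The simulated errors were independent and normal, with variances from the same fit, which real arrays need not follow. SE is limma's. Signals were not compared between probe sets.

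Members and lists were chosen with earlier results of these data known. The rule for named genes took all members, the called or up to 4 genes of smallest p on each list, and the 5 genes nearest to Slc12a7, with Taf7l as a check of the labels. Kcnk2, Snap25 and the other marker genes named fall outside it. The promoters printed were chosen after motifs were searched, and proteins were not used here. Alternatives were other scalings, offset, filters, variance prior, threshold and probe set rule, the replicate number as a block, and leaving out each array.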

Additional observations from a re-analysis of the deposited data

How the results depend on the processing

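The direction of the Slc12a7 difference at 1449011_at held in every setting that kept it. It was 1.70 with an offset at the 10th percentile and 1.73 to 1.82 with 1 array left out, and the filter at the 75th percentile removed it. The median of the kept members was −0.26 with that filter, which left 1 member probe set, and −0.07 to −0.01 with 1 array left out. The number of called probe sets, 312, was 148 after quantile normalization, 646 with median centring, 36 without the variance trend, 2375 with the filter at the 75th percentile and 2628 at an adjusted p under 0.10. It was 0 without a filter (limma, 6192 at an unadjusted p under 0.05) and 0 in each fit that lacked an array (3084 to 5500). Listed regulator and transport genes called numbered 2 with median centring (Kcnu1 and Stk39), 6 of 29 with the 75th percentile filter (Aqp11, Atp1b1, Kcnu1, Nrbp1, Stk39 and Tsc22d1; 20.7%, against 21.1% of all probe sets in that fit), 3 at an adjusted p under 0.10, and 0 in each fit that lacked an array. With the replicate number as a block, 541 probe sets and 0 listed genes were called. The labels do not say what a replicate number marks. The correlation of the deviations of same-numbered arrays over kept probe sets was 0.03, which gave no ground to pair them, although the replicate 2 arrays share 2385 identical values. A fit that lacks an array takes the spread of that genotype from the other genotype.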

Other observations

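The genes beside Slc12a7 on mouse chromosome 13 were looked at after its values were seen. Of the 5 protein-coding genes on each side in RefSeq order, 4 had probe sets above the filter, Clptm1l, Trip13, Brd9 and Zdhhc11. At these 5 probe sets limma called 0, and 1 had an unadjusted p under 0.05, where it called 1.39% of all kept probe sets and 24.7% had such a p. Clptm1l, Trip13 and Brd9 differed by −0.00 to 0.06 on the log2 scale. Zdhhc11, a palmitoyltransferase gene, had 2534 and 2175 in wild type and 1609 and 1876 in the knockout, a difference of −0.43 (limma adjusted p = 0.101).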
